A study of Mus musculus with 2 samples.

Results

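Sc2 is a cluster of spermatocytes, the male germ cells in meiosis, in a single-cell RNA sequencing (scRNA-seq) study of the mouse testis. Its members were all cells to which the deposited cell table gives the subtype Sc2. They numbered 1384 of 12408 cells, 488 of 5170 in the wild-type (WT) library and 896 of 7238 in the Tex13a knocked-out (KO) library. The table names 13 clusters, with Sg for spermatogonia, Sc1 and Sc2 for spermatocytes and Sd1 to Sd10 for the stages that follow. Sc1 (229 cells) and Sd1 (1570 cells, a mixture of spermatocytes and early spermatids by the study's description) stand beside Sc2 in that order, and Sc2 was compared with these 2.

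The study asked what loss of Tex13a, an X-linked gene of late male germ cells, does to testis RNA. WT and KO males were C57BL/6 (the methods say C57BL/6N), adult and otherwise untreated; in the KO line all exons of Tex13a were removed by CRISPR-CAS9. For each genotype, 3 testes of 3 mice were pooled, digested with collagenase I and made into 1 library, so that individual mice cannot be separated. Each genotype therefore has 1 library and no statistical test between WT and KO exists. An effect of the genotype and one of the library cannot be told apart.

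Spermatocytes of meiotic prophase pair and recombine their homologous chromosomes along the synaptonemal complex, a protein ladder that is taken apart again before the cells divide. In the long pachytene stage the X and Y chromosomes are gathered in the sex body and transcriptionally silenced, while autosomes switch on a large testis programme, much of it for the later spermatid. Piwil1 (MIWI) encodes the Argonaute-family protein that binds pachytene piRNAs, small RNAs made in abundance from this stage onward.

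Sc2 took 9.44% of the WT cells (95% exact binomial interval 8.66 to 10.3) and 12.4% of the KO cells (11.6 to 13.2). These intervals, like all others given here, cover counting error only. The Sc2 cells held 7108850 UMIs (unique molecular identifiers, each standing for 1 captured RNA molecule) in WT and 12722633 in KO. The median Sc2 cell had 11862 UMIs from 3552.5 genes in WT and 11467.5 UMIs from 3467.5 genes in KO. The median was 6212.5 and 6395 UMIs in Sc1 and 7196 and 8647 in Sd1, and no other cluster reached the median of Sc2 in either library. Mitochondrial genes gave a median of 0.902% of the UMIs of an Sc2 cell in WT and 0.992% in KO, less than in Sc1 (2.19% and 2.59%) and more than in Sd1 (0.507% and 0.531%). No cell barcode was shared between the libraries.

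Levels below are CPM, the UMIs of a gene scaled to a total of 1000000 UMIs over all cells of a cluster in 1 library, and where a pair of values is given the WT value comes first. A CPM is a share of the RNA, not an amount per cell. A log2 ratio sets Sc2 over another cluster within a library, with a prior of 1 UMI per gene shared between both by depth. A gene was read where both clusters together held at least 50 UMIs in each library, and it was called higher or lower where its level differed at least 2-fold the same way in WT and in KO. The clusters were made from these same genes, so the calls describe Sc2 and are no test. Only genes whose symbol could be tied to 1 row of the matrix are given, 5476 of them, which hold 87.1% of the WT and 86.7% of the KO UMIs.

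Piwil1, taken here as the marker of Sc2, was highest in Sc2 of all 13 clusters in both libraries. The gene (ENSMUSG00000029423.10) lies on the plus strand of chromosome 5, from 128702524 to 128755474 in the GENCODE annotation of GRCm38. Its level was 38.2 and 34.7 CPM in Sc1, 532 and 441 CPM in Sc2 and 53.5 and 52.8 CPM in Sd1. In both libraries Sc2 stood far above either neighbour. The log2 ratio over Sc1 was 3.79 (3.35 to 4.29) in WT and 3.67 (3.12 to 4.28) in KO, with 95% exact intervals, and over Sd1 it was 3.31 (3.14 to 3.49) and 3.06 (2.95 to 3.18). A Piwil1 UMI was seen in 95.9% of Sc2 cells in WT (93.7 to 97.5) and in 95.9% in KO (94.4 to 97.1). When each cell was thinned to 3000 UMIs, which left out no cell, the share was 74.4% and 70.8% in Sc2, 5.38% and 8.08% in Sc1, and 14.8% and 14.0% in Sd1. In Sd8, a spermatid cluster in which little Piwil1 mRNA was found, it was 1.62% and 1.15% after thinning, from cells with a median of 5254 and 5269.5 UMIs before it. Since the clusters were made from these same genes, the values describe Sc2 and are no test of the marker.

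Among the other markers, Stra8, Pou5f2, Hspa2, Ldhc and Ccna1 place Sc2 after Sc1. Not every marker went this way. Of the pachytene markers Tbpl1 was higher in Sc2 than in Sc1, but Mybl1 was nearly flat and Pgk2 was lower, short of 2-fold. Of the division markers Aurka was higher but Spc25 was lower. The values of these genes are given further below. Stra8, the retinoic acid target that opens meiosis, had 4287 and 4453 CPM in Sc1, 2.11 and 4.95 CPM in Sc2 and 2.08 and 0.981 CPM in Sd1. After thinning to 3000 UMIs a Stra8 UMI was found in 0.615% of Sc2 cells in WT and 0.670% in KO, and in 0.809% and 0.893% of the cells of Sd8. The share of cells in Sc2 was thus no higher than in Sd8. Without thinning it was 1.23% and 1.79% in Sc2. Pou5f2 (also called Sprm-1), a POU-domain factor of pachytene and later germ cells, was at 0.980 and 0 CPM in Sc1, 177 and 216 CPM in Sc2 and 55.6 and 57.2 CPM in Sd1. This is 1 UMI in WT Sc1 and none in KO Sc1, against which Sc2 of KO was at least 53.9-fold higher when 3 UMIs are taken as the limit of a count of 0. Hspa2, the testis HSP70 protein, had 249 and 267 CPM in Sc1, 952 and 874 CPM in Sc2 and 748 and 726 CPM in Sd1, and Ldhc, the testis lactate dehydrogenase, had 865 and 861 CPM in Sc1, 7320.4 and 7543 CPM in Sc2 and 8341 and 8052 CPM in Sd1. Both were close between Sc2 and Sd1. Ccna1, the cyclin of the first meiotic division, was 20.6 and 13.4 CPM in Sc1, 126 and 143 CPM in Sc2 and 498 and 480.1 CPM in Sd1, above Sc1 but below Sd1 in both libraries.

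**Figure D1:**
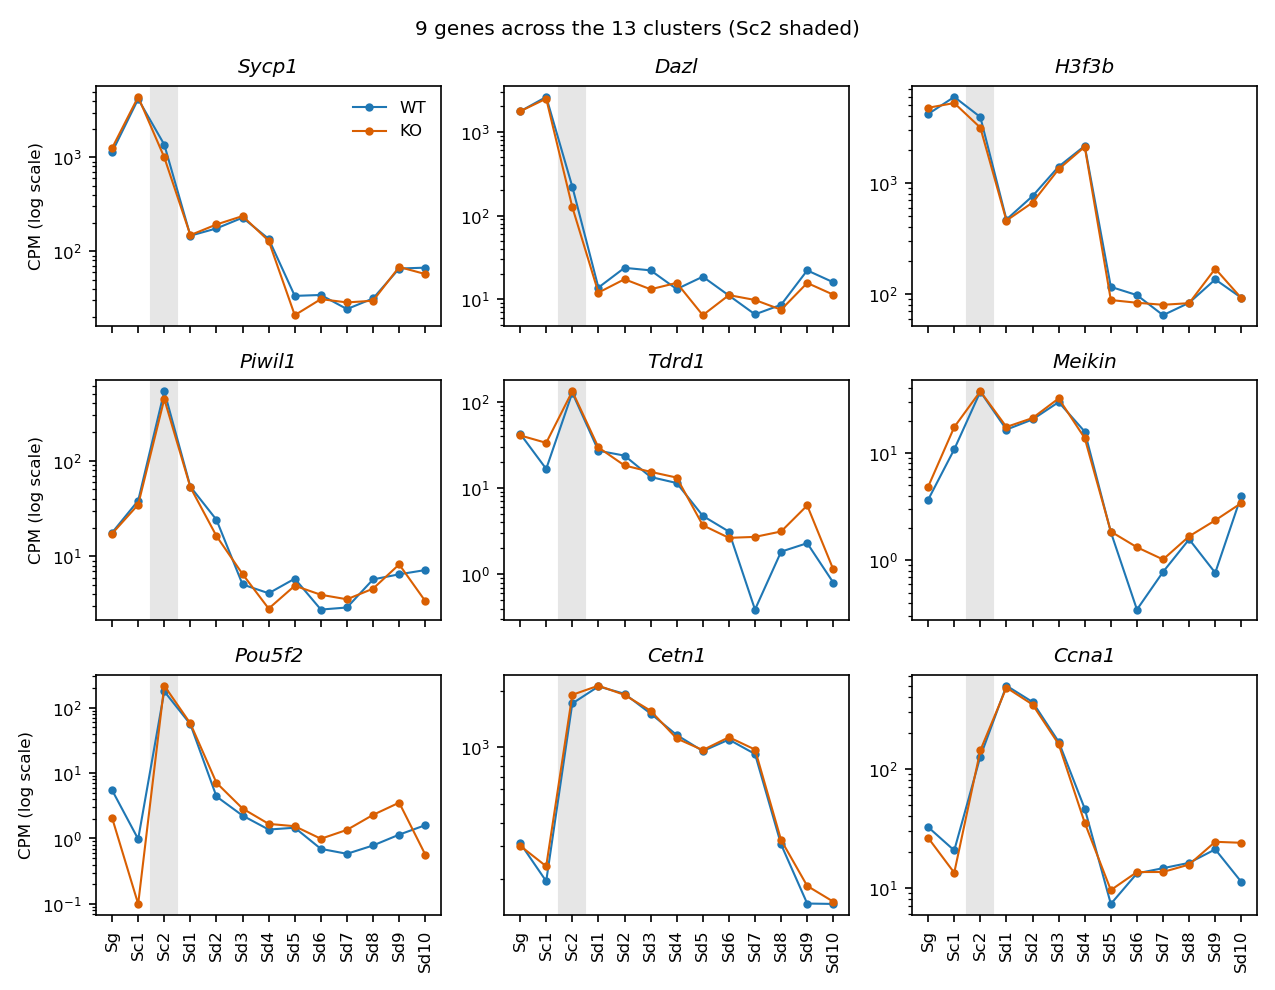
CPM (log scale) of 9 genes in each of the 13 clusters, in the order of the cell table, with WT in blue and KO in orange; Sc2 is shaded, and Pou5f2 in KO Sc1, which held no UMI, is drawn at 0.1. Piwil1, Tdrd1, Meikin and Pou5f2 are highest in Sc2 in both libraries, Sycp1 and Dazl fall through it, and Ccna1 rises through it to Sd1.

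Of 4070 genes read against both neighbours, 59 were at least 2-fold higher in Sc2 than in Sc1 and also than in Sd1, which is 1.45% of the genes read. Of these 59 genes, 52 were highest in Sc2 among all 13 clusters in both libraries. A further 979 genes were higher than in Sc1 and within 2-fold of Sd1, 103 were higher than in Sc1 and lower than in Sd1, and 224 were higher than in Sd1 and within 2-fold of Sc1. A decline was common as well, with 228 genes lower than in Sc1 but still higher than in Sd1, 727 genes lower than in Sc1 and within 2-fold of Sd1, and 115 genes lower than in Sd1 and within 2-fold of Sc1.

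Tdrd1 (ENSMUSG00000025081.13, chromosome 19, 56826209 to 56870012, plus strand) is a Tudor-domain scaffold that binds PIWI proteins. Of the 10 listed piRNA genes tied to 1 row, it was the other one among them. It was at 16.7 and 33.4 CPM in Sc1, 127 and 132 CPM in Sc2 and 27.0 and 29.5 CPM in Sd1. Baz1a, a chromatin remodelling subunit, reached 1224 and 1376 CPM in Sc2 from 334 and 335 in Sc1 and fell to 258 and 244 in Sd1. Mapk15, an atypical MAP kinase, had 3.92 and 0 CPM in Sc1, 93.4 and 80.4 CPM in Sc2 and 24.0 and 22.5 CPM in Sd1. Elfn2 was at 13.7 and 17.4 CPM in Sc1, 162 and 134 CPM in Sc2 and 27.6 and 25.5 CPM in Sd1, and Fam181a at 4.90 and 8.01 CPM in Sc1, 191 and 179 CPM in Sc2 and 40.5 and 36.3 CPM in Sd1. For each of these genes Sc2 was the highest cluster in WT and in KO. The 15 genes ranked highest against both neighbours also include genes with a Riken symbol. Of these, 4930405N21Rik was at 1.96 and 4.01 CPM in Sc1, 66.0 and 64.1 CPM in Sc2 and 2.84 and 4.17 CPM in Sd1. Another, 4930581F22Rik, was at 1.96 and 2.67 CPM in Sc1, 287 and 320.4 CPM in Sc2 and 48.2 and 51.9 CPM in Sd1.

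Other genes of the 59 are described here by choice after their values were seen. Meikin, which protects centromeric cohesion in the first meiotic division, was at 10.8 and 17.4 CPM in Sc1, 37.1 and 37.4 CPM in Sc2 and 16.5 and 17.4 CPM in Sd1. Rassf1 and Fancg, the latter of the Fanconi anaemia DNA repair pathway, stood at 169.9 and 156 and at 55.1 and 55.1 CPM in Sc2. H2afy, encoding the histone variant macroH2A, was at 48.0 and 40.1 CPM in Sc1, 224 and 189 CPM in Sc2 and 98.9 and 81.7 CPM in Sd1. Mllt10, a cofactor of the histone methyltransferase Dot1l, was at 359 and 387 CPM in Sc1, 1139 and 1107 CPM in Sc2 and 306 and 319 CPM in Sd1. Psma8, the testis subunit of the 20S proteasome, was at 207 and 289.7 CPM in Sc1, 609.8 and 585 CPM in Sc2 and 164 and 202 CPM in Sd1. Calm2, a calmodulin gene, was at 862 and 1105 CPM in Sc1, 2219.9 and 2255 CPM in Sc2 and 644 and 690.4 CPM in Sd1.

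Globin genes are in the same group of 59 and must be read apart. Hbb-bs had 5.88 and 6.68 CPM in Sc1, 94.5 and 57.8 CPM in Sc2 and 1.32 and 2.29 CPM in Sd1, and Hba-a1 and Hba-a2, nearly identical genes between which reads can be split, behaved alike. In WT 2 Sc2 cells and in KO 3 Sc2 cells held 10 or more globin UMIs, and 1 WT cell alone held 1656 of the 1708 globin UMIs of Sc2. Without these 5 cells the globin level of Sc2 was 4.37 CPM in WT and 5.04 CPM in KO, below the 12.7 and 13.4 CPM of Sc1, and 56 genes passed against both neighbours. The globin level of Sc2 thus rested on 5 cells.

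The RefSeq start regions of the 2 piRNA genes and of Ift27, a gene of ciliary transport that was also among the 59 (26.4 and 20.0 CPM in Sc1, 145 and 144 CPM in Sc2 and 65.8 and 62.4 CPM in Sd1), are shown because 2 transcription factor families tied to pachytene genes, MYB (Mybl1) and RFX (Rfx2), are expressed in Sc2 and have known short binding letters. Ift27 was picked from the 59 by no fixed rule, so the stretches do not stand for the group. The stretches come from RefSeq on GRCm38.p6 and lie within 250 bases before the first listed start, without any base of an annotated exon. For Piwil1 the annotations differ, the RefSeq start lying inside the longer GENCODE gene given above, so that positions are counted from the RefSeq start and other starts were not examined. They are given 5′ to 3′ along the gene's strand, with a match to TAACNG or GTTGCC on either strand in capitals.
Piwil1 (chr5:128736030-128736173, plus strand): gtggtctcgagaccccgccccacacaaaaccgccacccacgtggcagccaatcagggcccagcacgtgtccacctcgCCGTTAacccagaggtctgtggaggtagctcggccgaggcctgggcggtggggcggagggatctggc
Tdrd1 (chr19:56825959-56826208, plus strand): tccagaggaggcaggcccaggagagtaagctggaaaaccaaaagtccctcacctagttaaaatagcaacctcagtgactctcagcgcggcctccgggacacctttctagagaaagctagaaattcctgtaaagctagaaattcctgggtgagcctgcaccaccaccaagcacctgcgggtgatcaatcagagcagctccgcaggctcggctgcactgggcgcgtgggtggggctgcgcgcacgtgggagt
Ift27 (chr15:78174108-78174331, minus strand): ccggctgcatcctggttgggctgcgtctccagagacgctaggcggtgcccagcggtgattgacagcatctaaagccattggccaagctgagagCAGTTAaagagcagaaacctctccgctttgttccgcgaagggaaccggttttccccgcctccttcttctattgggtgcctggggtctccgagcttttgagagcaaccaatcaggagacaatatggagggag

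Piwil1 held a MYB-type match beginning 139 bases before its start, shown above, and a second 64 bases before it in an annotated exon. Ift27 held the MYB-type match shown, beginning 157 bases before its start, and an RFX-type match 9 bases before it, outside the stretch shown. The Tdrd1 stretch held neither motif. Of the 59 genes, 34 have a window in the table (250 bases before to 50 after the start), and 11 of these windows (32.4%, 17.4 to 50.5) held TAACNG on either strand, against 23.2% of the windows of all 27025 genes. GTTGCC was in 10 of 34 (29.4%, 15.1 to 47.5), against 12.7% of all windows and 15.4% of those of the genes read. The interval of the first share holds the background share. The second lies above it at its lower end by a small margin only when set against the windows of all genes and not against those of the genes read, and 3 of its 10 windows are those of the globin genes. These are counts of letters and not of bound sites.

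Against Sc1, 1141 of 4126 genes were higher in Sc2 (27.7%) and 1040 lower (25.2%). The median log2 ratio over all genes read was 0.03 in WT and -0.02 in KO, and 93.7% of the genes had the same sign in both libraries. The largest rises were in genes nearly missing from Sc1. Ddit4l held no UMI in Sc1 of either library and was at 54.9 and 68.5 CPM in Sc2, at least 18.7-fold higher in WT and 17.1-fold in KO. Tmem30c, a testis member of a family of lipid flippase subunits, rose from 8.82 and 5.34 to 294 and 311 CPM, and 1700018L02Rik from 11.8 and 8.01 to 400.3 and 399 CPM.

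The largest falls were in Stra8 and in X-linked genes. After Stra8, whose log2 ratio was -10.91 and -9.79, came Taf1, a subunit of TFIID (166 and 143 CPM in Sc1, 0.141 and 0.472 in Sc2), the ribosomal protein gene Rpl39 (438 and 363 to 1.55 and 1.41) and Map7d2 (527 and 506 to 2.25 and 1.73). Of the 10 genes ranked lowest, 7 lie on the X chromosome. Of the other 3, Prss50, a protease-like gene of early meiosis, fell from 925 and 745 to 5.91 and 2.04 CPM, and Sgpl1, a sphingosine phosphate lyase, from 50.9 and 64.1 to 0.141 and 0.314 CPM. In Sc2 a count of 3 UMIs stands for 0.422 CPM in WT and 0.236 CPM in KO. The Sc2 levels of Taf1 and Sgpl1 thus rest on few UMIs, and the size of their falls is uncertain.

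Against Sd1 fewer genes differed, 514 of 4266 being higher in Sc2 (12.0%) and 296 lower (6.94%), with a median over all genes of 0.10 in WT and 0.07 in KO. Of those also read against Sc1, 228 were lower than in Sc1, 224 within 2-fold of it and 59 higher. Ccne2, a cyclin E, was at 356 and 389.8 CPM in Sc1, 113 and 103 CPM in Sc2 and 5.30 and 4.58 CPM in Sd1. Hmgb2, a chromatin protein, was at 1560.4 and 1483 CPM in Sc1, 713 and 621 CPM in Sc2 and 32.2 and 38.6 CPM in Sd1, and Dazl, an RNA-binding protein of germ cells, at 2601 and 2478 CPM in Sc1, 221 and 126 CPM in Sc2 and 13.8 and 12.0 CPM in Sd1. Tex101, a surface protein of germ cells, was at 3139 and 2944 CPM in Sc1, 849.5 and 599 CPM in Sc2 and 53.7 and 51.1 CPM in Sd1. All 4 stepped down from Sc1 over Sc2 to Sd1 in both libraries.

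The genes lowest in Sc2 beside Sd1 include kinetochore and mitotic genes that rise in Sd1. Cenpe, a kinetochore motor, was at 185 and 231 CPM in Sc1, 124 and 137 CPM in Sc2 and 574 and 637 CPM in Sd1, and Spc25, of the NDC80 complex, at 136 and 132 CPM in Sc1, 35.4 and 41.6 CPM in Sc2 and 178 and 192 CPM in Sd1. Cdc25a, a phosphatase that drives entry into division, was at 64.6 and 65.4 CPM in Sc1, 28.6 and 29.8 CPM in Sc2 and 155 and 153 CPM in Sd1. Syne2, a nuclear envelope protein, was at 0.980 and 4.01 CPM in Sc1, 10.3 and 15.1 CPM in Sc2 and 67.9 and 76.2 CPM in Sd1. Spc25 and Cdc25a were lower in Sc2 than in both neighbours, and 29 genes in all had this dip (0.713% of 4070). Hspa5, the endoplasmic reticulum HSP70, was another at 3496 and 4928 CPM in Sc1, 551 and 649.7 CPM in Sc2 and 1131 and 1329 CPM in Sd1, as was the cohesin subunit gene Smc3 at 775 and 712 CPM in Sc1, 30.7 and 22.7 CPM in Sc2 and 90.4 and 84.7 CPM in Sd1; Smc3 was picked from the 29 after its values were seen.

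**Figure D2:**
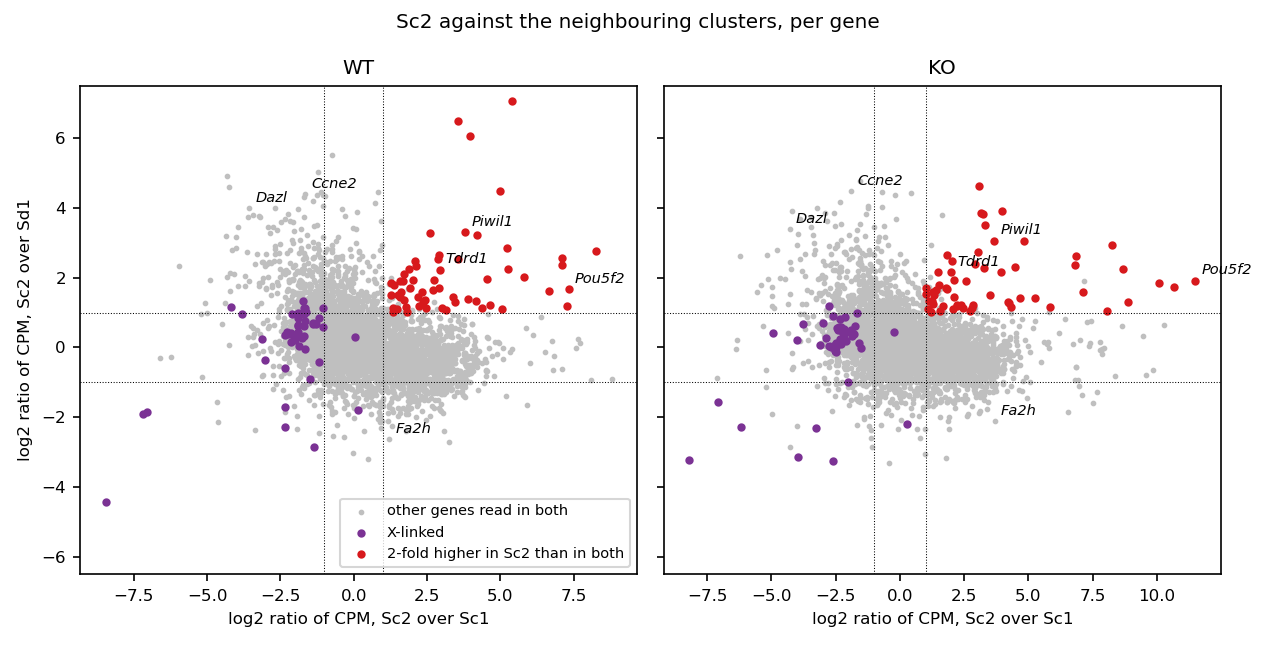
Each point is a gene read in both comparisons, with its log2 ratio of Sc2 over Sc1 on the x axis and of Sc2 over Sd1 on the y axis, in WT (left) and KO (right); dotted lines mark 2-fold. The 59 genes at least 2-fold higher than in both neighbours are red, and the X-linked genes, in purple, lie to the left of the Sc1 line with few exceptions. Ratios above about 6 on the x axis rest on Sc1 counts of 0 to 2 UMIs and depend on the prior. The lowest ratios on that axis rest on low counts in Sc2.

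A gene list's count below is the number of its members read, those higher and those lower, to be read against the shares of all genes given above. Members not tied to 1 row are missing, so the counts do not cover the whole lists. Tied to 1 row were 10 of 24 genes of the piRNA list, 9 of 23 of recombination, 9 of 18 transcription regulators and 16 of 30 of meiotic division. In the piRNA list, 5 of 10 genes were higher than in Sc1 and 2 lower, and 3 were higher than in Sd1 and none lower. Beside Piwil1 and Tdrd1, Mael was at 356 and 340.4 CPM in Sc1, 928 and 888 CPM in Sc2 and 927 and 872 CPM in Sd1, Gtsf1 at 203 and 211 CPM in Sc1, 644 and 654 CPM in Sc2 and 693 and 694 CPM in Sd1 and Tdrd6, a scaffold of the chromatoid body, at 18.6 and 28.0 CPM in Sc1, 298 and 351 CPM in Sc2 and 368 and 424 CPM in Sd1. Tex15, which acts with the fetal piRNA pathway and in early meiotic repair, ran the other way at 852 and 904 CPM in Sc1, 8.72 and 6.45 CPM in Sc2 and 10.8 and 11.9 CPM in Sd1. Fkbp6 fell over all 3 clusters, from 401 and 389 over 109 and 78.4 to 16.6 and 17.0 CPM. The rise was therefore not shared by all piRNA genes, and the list's median ratio over Sc1 was 0.71 in KO and larger in WT.

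Genes of the synaptonemal complex and meiotic cohesin were declining. None of 12 was higher than in Sc1 and 8 were lower, while 8 of 12 were higher than in Sd1 and none lower. Sycp1, the transverse filament, was at 4168 and 4395 CPM in Sc1, 1366 and 1000.0 CPM in Sc2 and 147 and 149 CPM in Sd1. Sycp3, of the lateral element, was at 3409 and 4315 CPM in Sc1, 1054 and 1041 CPM in Sc2 and 441 and 511 CPM in Sd1, and Hormad1, an axis protein, at 1967 and 2726 CPM in Sc1, 926 and 966 CPM in Sc2 and 274 and 358 CPM in Sd1. Sycp2 kept 1149 and 1132 CPM in Sc2 of 1715 and 1756 in Sc1. Syce1, of the central element, was the one member above its Sc1 level, short of 2-fold, with 325 and 306 CPM in Sc1, 526 and 565 CPM in Sc2 and 661 and 693 CPM in Sd1.

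Recombination genes were for the most part lower than in Sc1. Of 9 read against Sc1, 6 were lower and 2 higher, and of 7 read against Sd1, 3 were higher. Mnd1 fell from 82.3 and 105 to 5.91 and 4.48 CPM, Meiob from 249.8 and 315 to 34.0 and 21.1, and Zcwpw1, a reader of the marks laid at hotspots, from 818 and 659.5 to 46.0 and 34.9. Spo11, the nuclease that makes meiotic breaks, and Psmc3ip, a partner of the DMC1 recombinase, were the 2 that rose, Spo11 to 143 and 138 from 42.1 and 32.0 CPM and Psmc3ip to 463 and 420.4 from 154 and 151 CPM. Genes of spermatogonia and meiotic entry were lower than in Sc1 in 7 of 8, and all 6 read against Sd1 were higher than there.

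The 9 spermatocyte transcription regulators read, of 18 listed, were on. None was lower than in Sc1 and 7 were higher, but against Sd1 only Pou5f2 differed. Tbpl1 (TRF2), a TBP-like factor, was at 97.0 and 88.1 CPM in Sc1, 526 and 605 CPM in Sc2 and 922 and 889 CPM in Sd1. Rfx2 went from 15.7 and 12.0 to 42.5 and 42.4 CPM and Crem from 72.5 and 56.1 to 211 and 219.7 CPM. Mybl1 (A-MYB), which drives pachytene piRNA precursors, was nearly flat at 116 and 116 CPM in Sc1, 136 and 146 CPM in Sc2 and 159 and 184 CPM in Sd1. Ybx3 (MSY4), which binds testis promoters and mRNAs, was at 88.2 and 76.1 CPM in Sc1, 812 and 940.0 CPM in Sc2 and 774 and 863 CPM in Sd1.

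In the cilium and axoneme list, 18 of 22 were higher than in Sc1 and none lower, with a median ratio of 2.59 in WT and 2.64 in KO. Against Sd1, 1 was higher and 4 lower, with a median of -0.43 in WT and -0.36 in KO beside 0.10 and 0.07 for all genes. Meig1 was at 1185 and 1140.2 CPM in Sc1, 5443 and 5523 CPM in Sc2 and 6688 and 6174 CPM in Sd1, and Ccdc39, a ruler of the axonemal repeat, at 90.1 and 82.8 CPM in Sc1, 917 and 1069 CPM in Sc2 and 749 and 856 CPM in Sd1. Of 4 tektin genes 3 were lower than in Sd1, Tekt4 standing at 26.4 and 12.0 CPM in Sc1, 65.4 and 74.6 CPM in Sc2 and 312 and 290.3 CPM in Sd1. Ift88, of intraflagellar transport, was the gene higher than in Sd1, at 88.2 and 117 CPM in Sc1, 141 and 147 CPM in Sc2 and 50.1 and 69.1 CPM in Sd1.

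In the acrosome list 8 of 13 were higher than in Sc1 and none lower, and none of 16 differed from Sd1 by 2-fold, with a median of -0.47 in WT and -0.62 in KO. Spink2, a protease inhibitor, had 176 and 212 CPM in Sc1, 2513 and 2882 CPM in Sc2 and 3607 and 3581 CPM in Sd1, Dkkl1 had 252 and 239 CPM in Sc1, 1858 and 1900.1 CPM in Sc2 and 2426 and 2281 CPM in Sd1 and Acrbp, which binds proacrosin, had 45.1 and 53.4 CPM in Sc1, 437 and 435 CPM in Sc2 and 858 and 776 CPM in Sd1. The other members remained low, such as Acrv1 with 15.8 and 10.1 and Spaca1 with 13.2 and 7.78 CPM in Sc2. The list thus parts into genes already expressed in Sc2 and genes at a low level.

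Among genes of energy metabolism several testis forms stood out, with 7 of 11 genes higher than in Sc1 and 2 lower, and none of 11 past 2-fold against Sd1. Cox8c, a testis subunit of cytochrome c oxidase, had 612 and 506 CPM in Sc1, 5051 and 5076 CPM in Sc2 and 4283 and 4096 CPM in Sd1. Cyct, the testis cytochrome c, had 336 and 318 CPM in Sc1, 1301 and 1321 CPM in Sc2 and 684 and 715 CPM in Sd1, and Slc2a3, a glucose transporter, 14.7 and 13.4 CPM in Sc1, 244 and 218 CPM in Sc2 and 152 and 141 CPM in Sd1. Pkm fell from 81.3 and 65.4 to 14.3 and 6.84 CPM. In the list of mRNA storage and translation control, 5 of 14 were higher than in Sc1 and 2 lower, and none differed from Sd1. Pabpc1, the poly(A)-binding protein, had the most UMIs of any gene tied to 1 row in Sc2, with 9111 and 8651 CPM against 3519 and 3730.3 in Sc1. Ybx2 (MSY2) was at 352 and 331 CPM in Sc1, 1376 and 1292 CPM in Sc2 and 1059 and 991 CPM in Sd1.

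Of the meiotic division list, 4 of 16 were higher and 5 lower than in Sc1, and against Sd1 1 was higher (Ccne2) and 9 were lower. Aurka, a spindle kinase, was at 26.4 and 62.7 CPM in Sc1, 154 and 163 CPM in Sc2 and 440.5 and 389 CPM in Sd1, whereas Aurkc, its germ cell relative, had 4.90 and 2.67 CPM in Sc1, 80.5 and 90.9 CPM in Sc2 and 95.9 and 99.5 CPM in Sd1. Among heat shock genes 5 of 17 were higher than in Sc1 and 7 lower. Hspb9 had 445 and 499 CPM in Sc1, 1407 and 1606 CPM in Sc2 and 2012 and 1964 CPM in Sd1, and Hspa8 went from 594 and 509 to 83.7 and 63.9 CPM. Of 7 germ cell histone genes none was higher than in Sc1 and 4 were lower. H3f3b, an H3.3 gene whose pseudogenes can share its reads, was at 5958 and 5246 CPM in Sc1, 3925 and 3152 CPM in Sc2 and 469 and 459 CPM in Sd1.

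**Figure D3:**
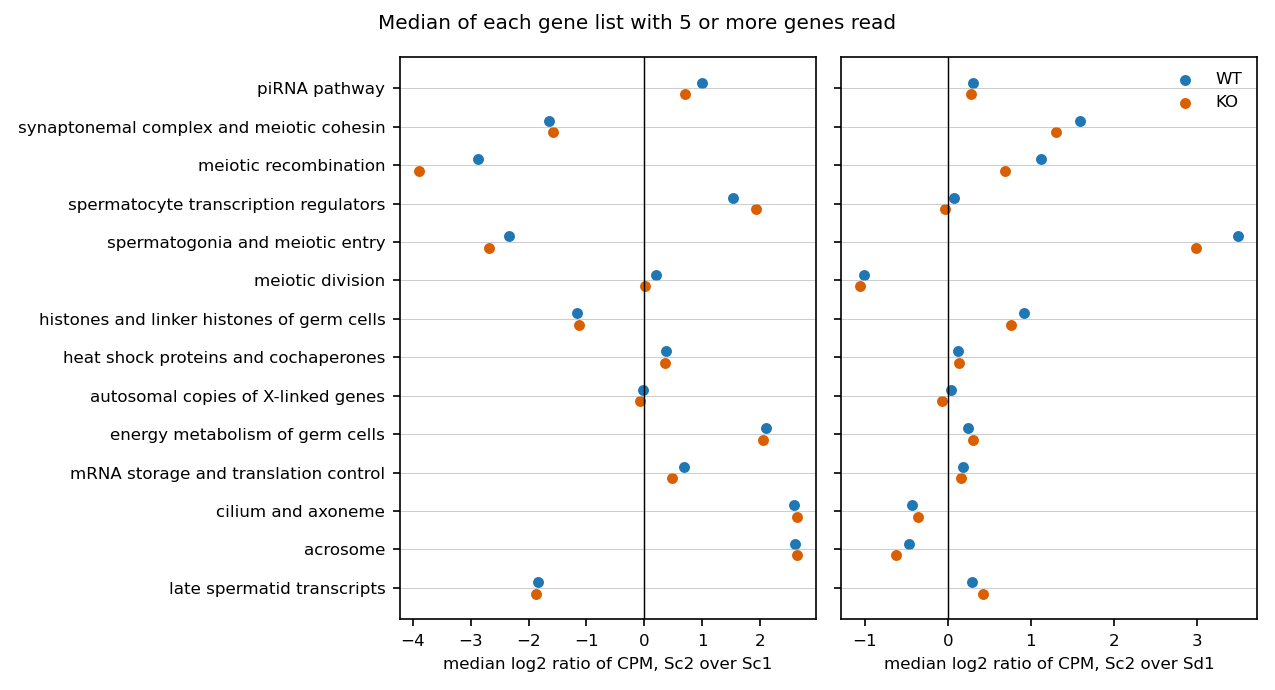
Median log2 ratio of CPM of Sc2 over Sc1 (left) and over Sd1 (right) for the 14 gene lists with 5 or more genes read, with WT in blue and KO in orange. Cilium, acrosome and energy lists lie above 2 against Sc1. Against Sd1 the cilium and acrosome lists lie below 0 and the energy list above it, and the entry, recombination and synaptonemal complex lists lie below 0 against Sc1 and above 0 against Sd1.

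Transcripts of late spermatids were used to gauge RNA of other cells in Sc2. The list has 16 genes, among them Prm1, which packages sperm DNA. In Sc2 they stood at 9.07% to 18.8% of their level in the whole WT library and at 8.46% to 19.8% in KO, and in Sc1 at 28.6% to 54.3% and 40.6% to 55.7%. All 16 were lower in Sc2 than in Sc1 and none differed 2-fold from Sd1. Prm1 itself had 22189.5 and 23216 CPM in Sc1, 5359 and 4489.9 CPM in Sc2 and 3909.7 and 3606 CPM in Sd1. Their level thus differed between Sc1 and Sc2, and the calls against Sc1 with such RNA subtracted are given in the closing section. Few somatic markers could be followed. Tied to 1 row were 3 of 12 Sertoli cell, 3 of 8 Leydig cell, 1 of 8 peritubular and vascular and 3 of 10 macrophage and blood markers. Their levels in Sc2 follow, with the globin genes given above, and the other markers were not seen. The 3 Sertoli cell genes summed to 14.3 CPM in WT and 5.27 CPM in KO, the 3 Leydig cell genes to 4.78 and 4.87 CPM with Hsd17b3 at 0 in WT, the smooth muscle gene Myh11 to 0.281 and 0, and the macrophage gene C1qb was at 1.13 and 0.629 CPM.

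X-linked transcripts were scarce in Sc2. UMIs of 149 X-linked genes made up 0.142% (0.139 to 0.145) of the UMIs of genes with a known chromosome in WT and 0.112% (0.110 to 0.114) in KO. In Sc1 they made up 1.20% and 1.15%, in Sd1 0.133% and 0.119%, and in Sd2, the next cluster, 0.477% and 0.452%. Sc2 and Sd1 were thus the low point in both libraries, with the 2 clusters in opposite order in WT and KO. The share of each autosome in Sc2 was 0.491 to 1.29 times that in Sc1, lowest for chromosome 16, which carries Prm1, Prm2, Prm3 and Tnp2, and the X share 0.119 times in WT and 0.0972 times in KO.

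Of 65 X-linked genes read against Sc1, 63 were lower in Sc2 in both libraries, with a median log2 ratio of -2.10 in WT and -2.59 in KO, and none was higher. Of 3993 autosomal genes read, 28.0% were higher and 23.7% lower, with medians of 0.07 and 0.01. Against Sd1, 12 of 53 X-linked genes were lower in Sc2 and none was called higher. Most of the 53 still had a ratio above 0, 36 in WT and 37 in KO, with medians of 0.38 and 0.24. Of 4141 autosomal genes read, 12.2% were higher than in Sd1 and 6.74% lower, with medians of 0.10 and 0.07. Scml2, a Polycomb protein of the sex body, fell from 423 and 415 to 2.81 and 1.34 CPM and was at 10.8 and 12.8 in Sd1, and Ubl4a was at 36.2 and 25.4 CPM in Sc1, 3.24 and 1.89 CPM in Sc2 and 20.8 and 22.7 CPM in Sd1.

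Of the X-linked UMIs left in Sc2, 95.2% in WT and 94.9% in KO came from genes whose highest cluster was among Sd2 to Sd10. Akap4, a sperm tail gene, is such a gene, at 64.6 and 74.0 CPM in Sc2, 10.3% and 12.2% of its level in the whole library. The 47 genes highest in Sg or Sc1, a choice that fixes their direction, summed to 4272 and 3857 CPM in Sc1 and to 54.9 and 46.5 CPM in Sc2. The genes highest in Sd2 to Sd10, 101 in WT and 99 in KO, summed to 4592 and 4748 CPM in Sc1 and to 1098 and 868 CPM in Sc2, a fall of 4.18-fold and 5.47-fold. Prm1, on chromosome 16, went from 22189.5 and 23216 to 5359 and 4489.9 CPM over the same clusters. The part of late spermatid RNA in the median over X-linked genes was not tested. When the profile of the whole library was subtracted at the level that sets Prm1 to 0, the X-linked share in Sc2 was 0.00795% in WT and 0.00734% in KO. In that subtraction any gene at a lower share of its library level than Prm1 became 0. The library profile also included the Sc2 cells themselves. The fall in the share is thus partly set by the procedure and does not measure the source of the X-linked UMIs.

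**Figure D4:**
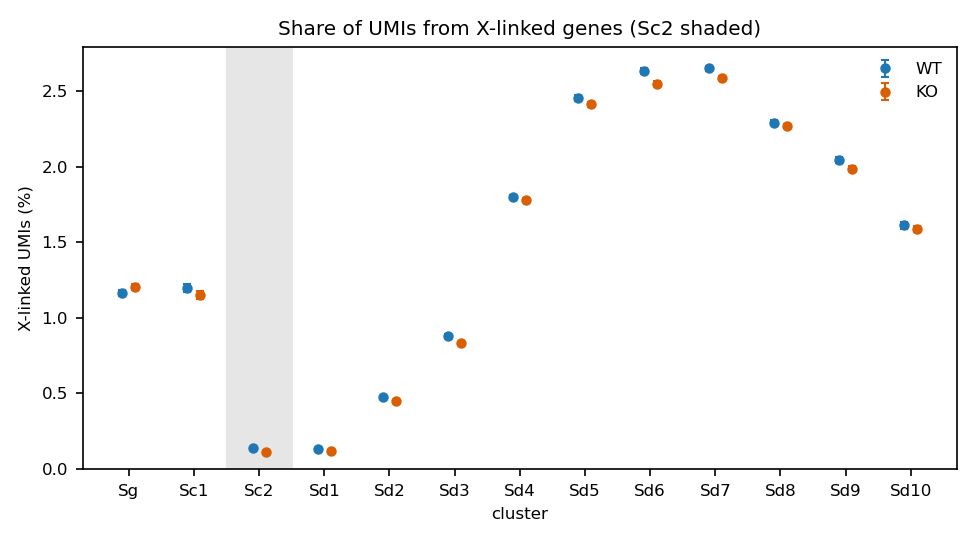
UMIs of 149 X-linked genes as a percent of the UMIs of genes with a known chromosome, for each cluster, with WT in blue and KO in orange and bars for the 95% exact binomial interval (smaller than most points). Sc2, shaded, and Sd1 lie at 0.112% to 0.142%, below Sg and Sc1 at 1.15% to 1.21% and below every later cluster.

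Several X-linked genes have an intronless autosomal copy used by germ cells. Rpl39, on the X, fell from 438 and 363 CPM in Sc1 to 1.55 and 1.41 in Sc2, while Rpl39l on chromosome 16 was at 551 and 575 in Sc1 and 1439 and 1453 in Sc2. Cetn2, a centrin, was at 44.1 and 42.7 CPM in Sc1 and 0.985 and 0.786 in Sc2, with too few UMIs to be read, while its copy Cetn1 went from 196 and 235 to 1709 and 1899. Not every copy rose. Of 10 copies read, 4 were higher than in Sc1 (Rpl39l, Cetn1, Rpl10l and Pdha2) and 1 lower, Ubl4b at 242 and 294 against 73.0 and 82.0 CPM. Pgk2, the best known of them, was at 271 and 275 CPM in Sc1, 185 and 223 CPM in Sc2 and 408 and 423 CPM in Sd1, and was called against neither. Along the order of Sc2 cells described below it was called higher in the late group, with 115, 169 and 253 CPM in the early, middle and late cells of WT and 137, 207 and 295 CPM in KO. Pgk2 and Ubl4b are both highest in Sd10, at 3703 and 3607 CPM and at 3836 and 3891 CPM, and all 16 late spermatid transcripts were lower in Sc2 than in Sc1 as well. The part of RNA from other cells in their Sc1 levels was not tested. Copies are alike in sequence, and reads that fit both may be missing from each.

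The Sc2 cells were not alike. Each cell was thinned to 3000 UMIs and scored by its UMIs of 16 meiotic division genes minus those of 31 genes of the synaptonemal complex, recombination and meiotic entry, and the cells of each library were cut by this score into 3 groups of equal size, called early, middle and late (163, 163 and 162 cells in WT and 299, 299 and 298 in KO). The groups are ranges of 1 continuous score and not cell types. The median score was -43, -17 and -6 in WT and -37, -15 and -4 in KO. Meiotic division genes had a median of 6, 5 and 7 UMIs per thinned cell in WT and 6, 5 and 8 in KO. The 31 subtracted genes had 49, 21 and 13 in WT and 42, 20 and 12 in KO. The order thus mostly follows the fall of the subtracted genes. The median UMI count before thinning was 10014, 11952 and 13759.5 in WT and 9142, 11811 and 14045 in KO, so that later cells were also deeper. The median mitochondrial percent went from 1.30% to 0.645% in WT and from 1.51% to 0.656% in KO between the early and the late group.

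Among 3665 genes read outside the scored lists, 514 were at least 2-fold higher in the late than in the early group in both libraries (14.0%) and 440 lower (12.0%). Pou5f2 was among the first, with 13.3, 140.3 and 332 CPM in the early, middle and late group of WT and 17.2, 207 and 356 CPM in KO. Ddit4l had 5.41, 27.4 and 116 CPM in WT and 6.51, 45.2 and 129.6 CPM in KO. Galntl6, a glycosyltransferase-like gene, had 14.3, 66.1 and 176 CPM in WT and 14.8, 121 and 262 CPM in KO. The order was the same in both libraries for all 3 genes.

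Among the genes ranked first downward, Phax, an export adaptor for small nuclear RNA, had 81.2, 21.1 and 2.96 CPM in WT and 71.1, 11.4 and 3.36 CPM in KO. Ncl, encoding nucleolin, had 464, 127 and 54.0 CPM in WT and 397, 74.6 and 36.8 CPM in KO. Tcea1, a transcription elongation factor, had 58.1, 17.3 and 6.29 CPM and 53.0, 10.3 and 5.34 CPM. These genes were lower in the middle than in the early group too.

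Piwil1 itself was highest in the early Sc2 cells, at 695, 606 and 344 CPM in WT and 652, 482 and 267 CPM in KO, and Tdrd1 followed it with 203, 140.3 and 58.8 CPM and 234, 135 and 61.7 CPM. Of 9 piRNA genes read along the order, 5 were lower in the late group and 1 higher, with a median ratio of -1.01 in WT and -1.17 in KO. The 1 that rose was Tdrd6, at 146, 313 and 398 CPM and 180.0, 375 and 444 CPM. In the acrosome list 4 of 11 rose and none fell, Zpbp2 having 193, 435 and 783 CPM and 220.0, 562 and 926 CPM, and in the cilium list 3 of 22 rose and 1, Ift88, fell. Tbpl1 had 246, 461 and 793 CPM and 267, 584 and 849 CPM. Piwil1 and Pou5f2, both highest in Sc2 of all clusters, thus stood at opposite ends of it.

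**Figure D5:**
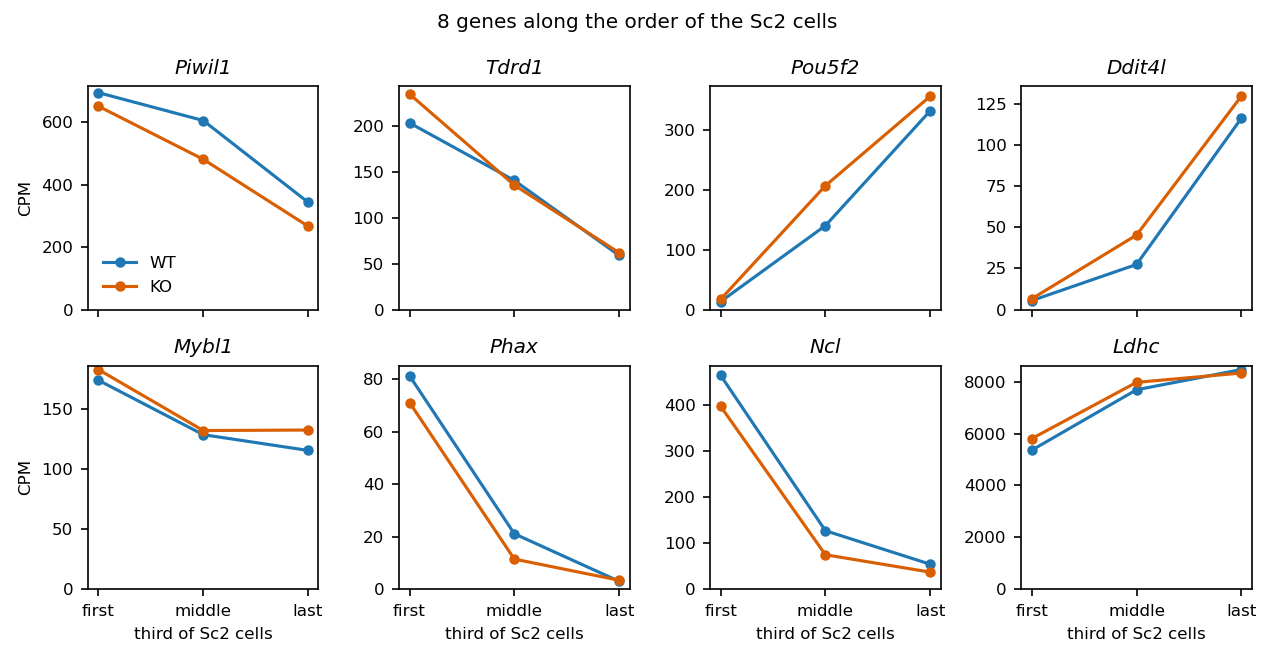
CPM of 8 genes in the early (first), middle and late (last) group of the Sc2 cells, ordered by the score within each library, with WT in blue and KO in orange. Piwil1, Tdrd1, Phax and Ncl are highest in the early cells and Pou5f2 and Ddit4l in the late cells, in both libraries.

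Sc2 of KO and WT were alike over most genes. Of 4396 genes with at least 50 UMIs in both Sc2 together, 5 were at least 2-fold higher in KO (0.114%) and 39 lower (0.887%). The median log2 ratio of KO over WT was -0.04, with quartiles of -0.19 and 0.10. With 1 library each these are values and not a test, and fold calls near 50 UMIs depend on the counts. The 5 higher genes were 1700030C10Rik, Gm26596, Stra8 (15 UMIs in WT and 63 in KO), Gm40332 and Gm5904, the last 2 named here after their values were seen. The largest rise was 1700030C10Rik with 2.11 and 19.1 CPM and a log2 ratio of 3.15 (2.43 to 4.04), 95% exact interval in parentheses. It differed alike in Sc1 (5.88 and 28.0 CPM) and Sd1 (2.46 and 25.7 CPM) in the same direction.

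Among genes with at least 100 UMIs, the 5 highest in KO also held Gm26596 (2.95 and 7.62 CPM) and 3110070M22Rik (102 and 176 CPM), the latter with a ratio of 0.78 (0.66 to 0.91). Gnas, the stimulatory G protein subunit, was the lowest in KO of the same genes with 27.7 and 9.75 CPM, a ratio of -1.50 (-1.84 to -1.18). Ctsl, a lysosomal protease, followed with 34.9 and 13.9 CPM and -1.32 (-1.61 to -1.04). The alpha globin genes are also among the lowest 5 and rest on the cells named above. Of 2 Sertoli cell markers with enough UMIs both were called lower in KO, Cst9 with 6.75 and 2.36 and Cst12 with 4.78 and 1.49 CPM. In Sd1 Cst9 was at 10.4 and 0.491 CPM, again lower in KO, and the part of somatic cell RNA in the lower genes was not tested.

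Piwil1 was at 532 and 441 CPM, a log2 ratio of KO over WT of -0.27 (-0.33 to -0.21), and Tdrd1 at 127 and 132 CPM with 0.06 (-0.06 to 0.18). Both ratios were under 2-fold. Of 8 genes of meiotic entry, Stra8 was called higher in KO, and Prss50 lower, with 5.91 and 2.04 CPM. The Stra8 UMIs of Sc2 lie in 6 of 488 cells in WT and 16 of 896 in KO, and they outnumber these cells in both libraries. The middle group of the order held 12 of them in WT and 38 in KO. Whether they are RNA of other cells was not tested. The other genes were under 2-fold. Dazl had a ratio of -0.81 (-0.91 to -0.71), Tex101 of -0.50 (-0.55 to -0.46) and Sycp1 of -0.45 (-0.49 to -0.41) (Sycp1 is of the synaptonemal complex), and the median over the 8 genes was -0.57, beside -0.04 for all genes. The median scores of the 3 groups of cells, given above, were higher in KO. The score subtracts the UMIs of these same genes, so it is no separate evidence beside their lower levels. Within the groups Dazl was at 602, 113 and 29.2 CPM in WT and 361, 70.4 and 16.2 CPM in KO, lower in KO in all 3. The groups were cut within each library by a score that includes Dazl, so they need not be like stages. Whether the KO library holds later Sc2 cells or lower levels at like stages cannot be told apart.

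The share of cells in Sc2 was higher in KO, as was that in Sd1 (14.6% against 9.92%), while that in Sc1 was lower (1.37% against 2.51%). With the 5% of cells with most UMIs left out in each library, Sc2 held 8.19% of the WT cells and 11.3% of the KO cells. These shares are of all cells that passed the study's filter and move with the yield of every other cluster.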

How the data were processed

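Testes of WT and Tex13a KO mice were dissociated and sequenced in 2 libraries with a microwell kit. The authors deposited raw counts of UMIs per gene and cell, made with fastp, STAR 2.5.3a on mm10 and featureCounts 1.6.2, as the submitters' processing notes and the study's methods say, and a cell table from Seurat 3.2.3 with clusters, the deposited percent of mitochondrial UMIs, and sctransform totals, a deposited score that was not used. The integration drew on both libraries, so clusters were made from the genes compared here.

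The matrix has 26758 rows and 25065 symbols. Rows were matched to symbols in order, anchored by 30 mitochondrial symbols whose single solution gave the deposited mitochondrial percent in 12408 of 12408 cells (662 if line numbers were used). A row could lack a symbol only if under 5 cells had it, and a gene was used where 1 row was possible. Without that rule 2648 symbols have 1 possible row.

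UMIs were summed per library and cluster. Log2 ratios had a prior of 1 UMI, a minimum of 50 UMIs and a 2-fold threshold. Poisson and binomial 95% intervals are exact. No doublet caller was run, and cells with most UMIs were left out as an alternative. Chromosomes came from GENCODE annotation of the same build. The named genes were the markers and lists, up to 15 genes highest against both neighbours at 50 CPM or more, the 10 highest and lowest ratios of Sc2 over each neighbour, the 5 highest and lowest of KO over WT at 100 UMIs or more, and the 15 genes with most UMIs. Members and lists were chosen with earlier results of these data known. In simulated data for the Sc1 comparison, 98.98% of 196 changed genes among 4070 were recovered and 1 of 3874 unchanged genes was called. The simulated counts were Poisson, and the planted changes were larger than 2-fold, in genes expected above the minimum of 50 UMIs. Spread between cells, cells with outlying counts and free RNA were not simulated. These rates thus check the calculation and are not the accuracy of the calls. Python 3.11.15, numpy 2.4.6, pandas 2.3.3, scipy 1.17.1 and matplotlib 3.10.9 were used. The alternatives were another prior, other minimums, scalings, thinning, cells left out, subtraction of free RNA and symbols without the rule.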

Additional observations from a re-analysis of the deposited data

How the results depend on the processing

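No paired analysis was possible because each genotype has 1 library. Depth limits Sc1 most, with 229 cells. With symbols matched without the rule on rows, fewer genes are tested, and 625 genes were higher and 576 lower than in Sc1, 230 higher and 156 lower than in Sd1, 28 higher than in both, and 2 higher and 19 lower in KO. At a minimum of 200 UMIs, 652 were lower than in Sc1, and 1 was higher and 6 lower in KO. At 10 UMIs, 31 were higher and 145 lower in KO. With cells thinned to 3000 UMIs, 609 were lower than in Sc1 and 16 lower in KO. With free RNA subtracted at the level of Prm1, 1704 genes were higher and 764 lower than in Sc1 (1141 and 1040 without it), 464 were lower than in Sd1, and 132 were higher and 159 lower in KO. The median log2 ratio of all genes over Sc1 was then 0.46 in WT and 0.71 in KO. Under the same subtraction the log2 ratio over Sc1 turned positive for Car2 in KO (7.52), Oaz3 in WT (9.65) and KO (11.43), Prm2 in KO (12.44), Tnp2 in WT (6.55) and the median of late spermatid transcripts in KO (7.39). Each of these genes stood in Sc1 at a lower share of its library level than Prm1 (Tnp2 in WT at 40.7%, Prm1 at 41.3%), so its Sc1 value was 0 by construction, these sizes are set by the prior, and no direction is read from them. The X-linked share of Sc2, 0.142% in WT and 0.112% in KO, was 0.153% and 0.119% as a mean of single cells, 0.152% and 0.118% with thinned cells, 0.153% and 0.116% without the 5% of cells with most UMIs, and 0.00795% and 0.00734% with free RNA subtracted. In the last setting X-linked genes at a lower share of their library level than Prm1 were set to 0. The share of cells in Sc2 was 8.19% and 11.3% without the 5% of cells with most UMIs. Leaving out cells with 10 or more globin UMIs, chosen after seeing the data, left 56 genes higher than in both neighbours. The cause of the other changes was not tested.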
